A study of Mus musculus with 24 samples.

Results

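Canonical Wnt signaling was followed in the dental mesenchyme through 10 of its target and effector genes, Apcdd1, Kremen1, Axin2, Nkd1, Nkd2, Sp5, Lef1, Tcf7, Tcf7l1 and Tcf7l2. They were chosen by symbol from the 56748 genes of the deposited count table, and all 10 passed the filter on low counts in every comparison. RNA-seq was performed on the mesenchyme of the first mandibular molar of ICR mice at E13 (cap stage) and E15 (bell stage), with 3 libraries in each of 8 groups. Cap-W and Bell-W held the undivided mesenchyme, Cap-L, Cap-B, Bell-L and Bell-B its lingual (L) or buccal (B) part cut apart with a needle, and the other two groups (Cap-L+2D, Cap-B+2D) the cap stage parts after 2 days in vitro. The sources name no transgene and no added agent for these groups. Gene positions are in GRCm39, counted from 1. The study obtained its tissue from 36 embryos of 3 pregnant mice, and its methods state both triplicates and 2 biological replicates. Which animals went into which library is not given in the sources used here, so the 3 libraries of a group may include technical repeats, and every SE, SD and p-value covers the spread between libraries only. The question here was how far these genes differed between the sides, and whether those differences were alike at both stages and after culture.

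In canonical Wnt signaling, a Wnt ligand bound by Frizzled and Lrp5 or Lrp6 stops the destruction complex from degrading beta-catenin, which then activates target genes together with DNA-binding proteins of the LEF/TCF family. Several targets feed back as inhibitors of the pathway, and Axin2 is widely read as a reporter of its activity. In the tooth germ the pathway runs in both epithelium and mesenchyme, and Lef1 is needed for teeth to develop beyond the bud stage.

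Between 20581720 and 39266497 read pairs were counted per library, and 3 counts, used as the floor, came to 0.0842 to 0.159 normalized CPM (counts per 1000000 counted read pairs). All 11 markers of dental mesenchyme examined, such as Msx1 and Pax9, exceeded 1 CPM in every group. Markers of other tissues were also present and several moved with side, which in bulk samples leaves fewer cells of a type and less RNA per cell impossible to tell apart. The summed CPM of 12 epithelial markers was 479 to 527 in Cap-L and 333 to 348 in Cap-B, 777 to 810 in Bell-L and 569 to 589 in Bell-B, and 338 to 369 in Cap-L+2D and 90.8 to 93.0 in Cap-B+2D. The sum of 10 skeletal muscle markers went the other way, from 25.8 to 26.5 in Cap-L against 280 to 296 in Cap-B, and reached 4727 to 4928 in Cap-B+2D. Of the markers tested between Cap-L and Cap-B, 5 of 6 for osteoblasts and 5 of 5 for cartilage were also higher in Cap-L, and 6 of 6 for Schwann cells and glia in Cap-B. For endothelium and for erythroid cells 0 of 7 were called, and for macrophages 1 of 7, higher in Cap-B. Of 5 neuronal markers 2 were higher in Cap-B and 1 in Cap-L. By the same rule of a call, given below, 7.10% of all genes tested were higher in Cap-L and 10.4% in Cap-B. Among the epithelial markers, Shh was near its floor in Cap-L (0.238 CPM). In the undivided groups, Bell-W replicate 3 stood apart with an epithelial sum of 1952 against 557 and 492 in the other libraries of its group, and a neuronal sum of 129 against 20.2 and 23.8, so its results are given with and without it. Cap-W replicate 1 also stood apart, with 5.39% of its counts on the ribosomal RNA gene Rn18s-rs5 against 0.264% and 0.304% in the other Cap-W libraries, and with a chi-square per gene of 189 and 145 against them, where the third pair of the group gave 8.99.

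At the cap stage, 6 of the 10 genes were called as different between the sides. Lef1, Tcf7l2, Apcdd1 and Nkd2 were higher in the buccal part, and Sp5 and Tcf7 in the lingual part. A gene was called when edgeR's adjusted p was below 0.05 and its log2 fold change, buccal over lingual, exceeded 0.5 in size. By this rule 17.5% of all tested genes were called, 10.4% buccal and 7.10% lingual. Nkd1 and Axin2, both higher in the buccal part, passed the adjusted p but not the limit on the fold. At the bell stage 3 genes were called (Lef1 and Tcf7l2 buccal, Sp5 lingual), where the background was 12.9% of genes, 6.00% buccal and 6.88% lingual. After culture 5 were called (Lef1, Tcf7l2 and Apcdd1 buccal, Sp5 and Tcf7 lingual), where it was 25.1%, with 12.5% in each direction. The libraries of both sides did not overlap in 8, 7 and 8 of the genes at the cap stage, at the bell stage and after culture, and in 52.2%, 45.5% and 58.8% of all genes tested. Sp5 was called lingual, and Lef1 and Tcf7l2 were called buccal, in all 3 comparisons. Apcdd1 was also higher in the buccal part in all 3, but under the limit on the fold at the bell stage. The median log2 fold change of the 10 genes was 0.39, 0.01 and 0.16, while the median over all genes lay at -0.0056, 0.00035 and 0.00091.

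**Figure D1:**
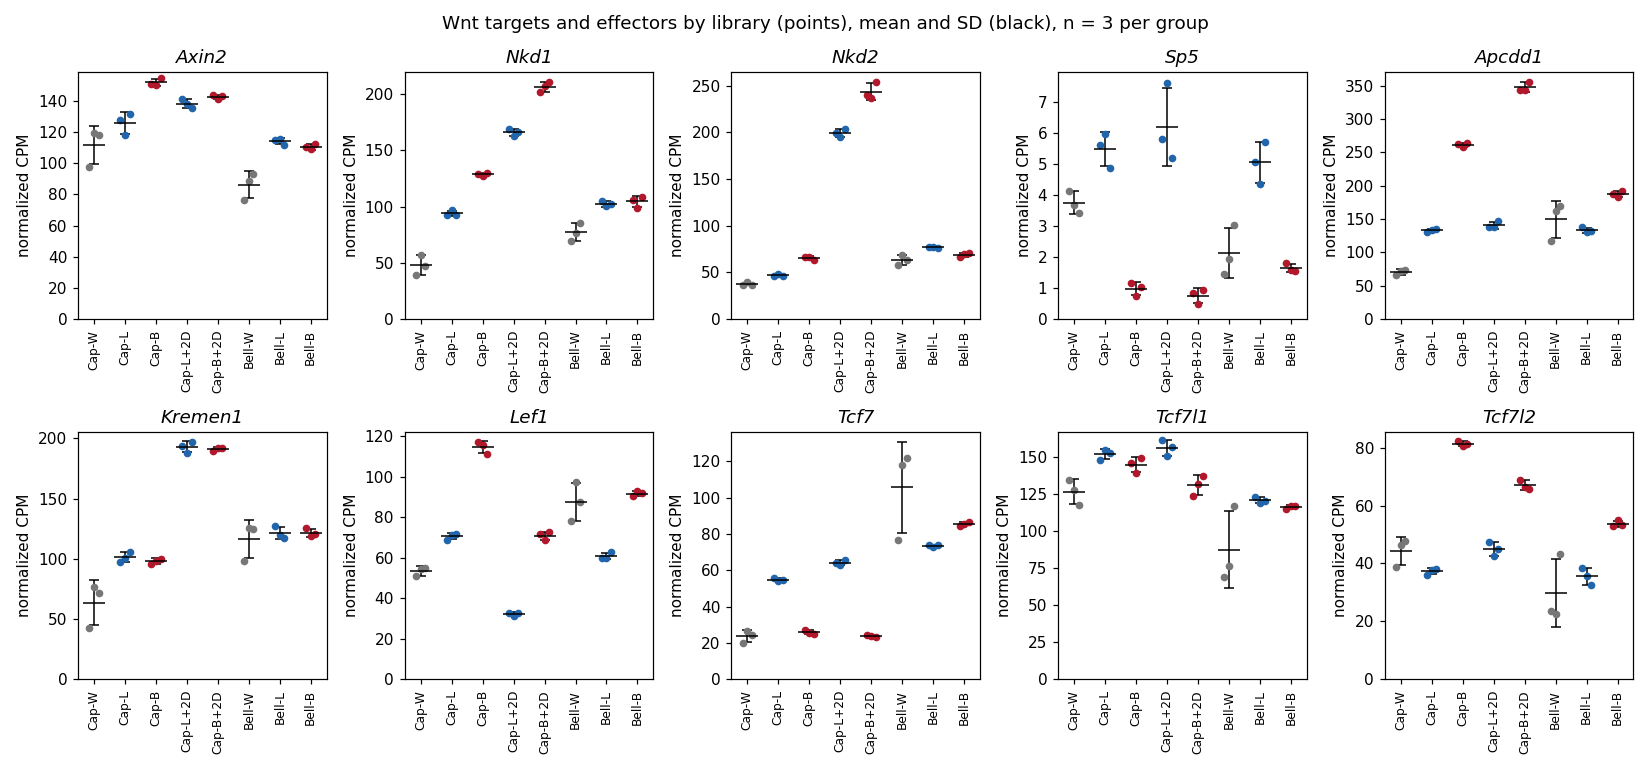
Normalized CPM of each gene (vertical axes, from 0) in the 24 libraries (points) of the 8 groups, undivided in grey, lingual in blue and buccal in red, with mean and SD in black (n = 3). Sp5 stays at or above 4.37 in the 9 lingual libraries and at or below 1.80 in the 9 buccal ones, while the sides overlap for Kremen1.

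**Figure D2:**
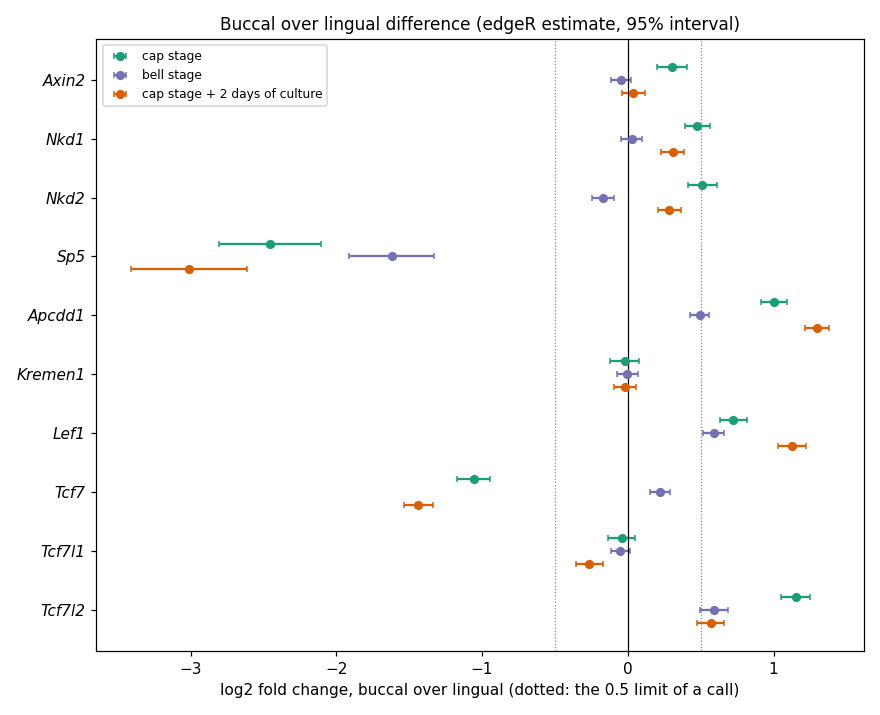
Log2 fold change, buccal over lingual (horizontal axis), of each gene at the cap stage, at the bell stage and after culture, with 95% intervals of edgeR's estimate. Sp5 lies on the lingual side in all 3 comparisons, and Tcf7 lies at -1.06 and -1.44 at the cap stage and after culture but at 0.22 at the bell stage.

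Among the inhibitors that act at the cell surface, Apcdd1 (ENSMUSG00000071847, chromosome 18) is a membrane protein that binds Wnt and its co-receptor. It measured 130, 134 and 135 CPM in Cap-L and 262, 258 and 264 in Cap-B. After culture it stood at 138, 137 and 146 in Cap-L+2D and at 344, 344 and 356 in Cap-B+2D. In both conditions every buccal library exceeded every lingual one, with log2 fold changes of 1.00 ± 0.04 (SE, n = 3 per group) and 1.30 ± 0.04. At the bell stage Apcdd1 was 137, 131 and 132 in Bell-L and 188, 183 and 192 in Bell-B. These groups did not overlap either, but the difference of 0.49 ± 0.03 fell just short of the limit on the fold. It passed the limit without Bell-L replicate 1 or Bell-B replicate 2, at 0.51 in both fits. Its lingual level was alike in the 3 conditions, with means of 133, 141 and 133 CPM in Cap-L, Cap-L+2D and Bell-L, and its buccal level was the one that varied most, between 188 and 348.

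Kremen1 (ENSMUSG00000020393, chr11:5141552-5211558), the receptor through which Dkk proteins remove Lrp6 from the membrane, showed no side difference that could be detected. Its means were 101 ± 4 CPM in Cap-L and 98.1 ± 2.4 in Cap-B (SD, n = 3). The libraries of both sides overlapped in each condition. The intervals of the log2 difference were -0.12 to 0.08 at the cap stage, -0.07 to 0.07 at the bell stage and -0.10 to 0.05 after culture. The highest Kremen1 levels were those of the cultured parts, at 194, 188 and 197 CPM in Cap-L+2D and 190, 192 and 192 in Cap-B+2D.

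Of the inhibitors inside the cell, Axin2 (ENSMUSG00000000142, chr11:108811175-108841609), a scaffold of the destruction complex, differed little between the sides. It was 128, 118 and 131 CPM in Cap-L and 151, 150 and 155 in Cap-B. The buccal libraries were the higher ones without overlap, but at 0.30 ± 0.05 the log2 fold change was below the limit of a call (adjusted p = 6.90e-05). In the other conditions the sides overlapped, with 115, 116 and 112 CPM in Bell-L against 110, 109 and 112 in Bell-B, and with 141, 138 and 135 in Cap-L+2D against 144, 141 and 143 in Cap-B+2D. The intervals of the log2 difference were -0.11 to 0.02 and -0.04 to 0.12. Among the 8 groups Axin2 ranged only from 86.1 CPM in Bell-W to 152 in Cap-B. From high to low the order was Cap-B, Cap-B+2D, Cap-L+2D, Cap-L, Bell-L, Cap-W, Bell-B and Bell-W. Neighbours in that order overlapped in Cap-B+2D and Cap-L+2D, in Bell-L and Cap-W, and in Cap-W and Bell-B.

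Nkd1 (ENSMUSG00000031661, chr8:89247982-89321512) and Nkd2 (ENSMUSG00000021567, chr13:73966653-73995750) encode naked cuticle proteins, which bind Dishevelled and dampen the signal. Nkd2 measured 45.7, 48.3 and 46.1 CPM in Cap-L and 66.3, 66.4 and 63.7 in Cap-B. The groups did not overlap, and the buccal excess of 0.51 ± 0.05 on the log2 scale was barely over the limit. It fell below the limit, to 0.49 to 0.50, without Cap-B replicate 1, Cap-B replicate 2 or Cap-L replicate 1. Nkd1 was 92.6, 96.9 and 92.6 in Cap-L and 129, 127 and 130 in Cap-B, again without overlap, and at 0.48 ± 0.04 it was just below the limit. At the bell stage Nkd1 overlapped between the sides, with 105, 100 and 102 CPM in Bell-L and 106, 99.0 and 109 in Bell-B. Nkd2 there lay slightly lower in the buccal part, at 77.6, 77.3 and 76.2 in Bell-L and 66.0, 69.2 and 70.4 in Bell-B (log2 fold change -0.17 ± 0.04, not called). After culture both were higher in the buccal part without overlap, Nkd1 by 0.31 ± 0.04 and Nkd2 by 0.28 ± 0.04, again under the limit.

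Sp5 (ENSMUSG00000075304, chr2:70305267-70308073), a zinc finger transcription factor induced by Wnt signaling, had the widest side difference on the log2 scale and the lowest level of the 10 genes per length. It measured 5.62, 5.95 and 4.87 CPM in Cap-L and 1.17, 0.753 and 1.03 in Cap-B, from 138 to 212 counts in the lingual libraries and 18 to 26 in the buccal ones. The bell stage gave 5.07, 4.37 and 5.70 CPM in Bell-L and 1.80, 1.57 and 1.56 in Bell-B. After culture it was 5.79, 7.61 and 5.20 in Cap-L+2D and 0.845, 0.492 and 0.926 in Cap-B+2D. The sides did not overlap in any condition, and every library exceeded the floor of 3 counts. The log2 fold changes were -2.46 ± 0.17, -1.62 ± 0.14 and -3.01 ± 0.19 (SE) at the cap stage, at the bell stage and after culture. From high to low, its order was Cap-L+2D, Cap-L, Bell-L, Cap-W, Bell-W, Bell-B, Cap-B and Cap-B+2D, with overlap among the first 3 groups, between Bell-W and Bell-B and between the last 2.

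Epithelial and osteoblast markers were also higher in Cap-L than in Cap-B, and their part in the Sp5 difference was not tested. The osteoblast sum was 531 to 555 in Cap-L and 216 to 226 in Cap-B, 438 to 465 in Bell-L and 305 to 310 in Bell-B, and 2144 to 2163 in Cap-L+2D and 489 to 504 in Cap-B+2D. By single markers, 5 of 6 were called lingual at the cap stage and 6 of 7 after culture, while at the bell stage 1 of 6 was lingual and 3 were buccal. Of all genes tested, 7.10%, 12.5% and 6.88% were called lingual in these comparisons, and 6.00% buccal at the bell stage. Sp5 averaged 5.48 ± 0.55 and 0.983 ± 0.213 CPM (SD, n = 3) in the parts of the fresh cap stage, 5.05 ± 0.67 and 1.64 ± 0.14 in those of the bell stage, and 6.20 ± 1.26 and 0.754 ± 0.230 after culture, with the lingual part given first.

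**Figure D3:**
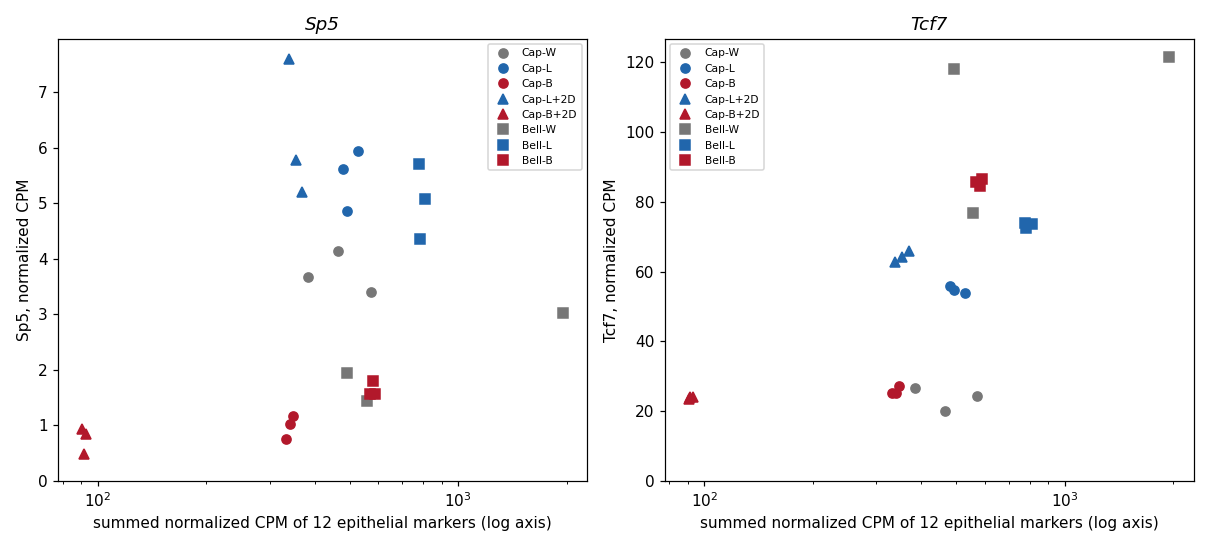
Normalized CPM of Sp5 and Tcf7 (vertical axes, from 0) against the summed normalized CPM of 12 epithelial markers (horizontal log axis) in the 24 libraries, with lingual in blue, buccal in red, undivided in grey, and circles, triangles and squares for the fresh cap stage, the cultured parts and the bell stage. In each condition the lingual libraries lie to the right of the buccal ones and above them for Sp5, and for Tcf7 they lie above them in the cap stage and cultured parts and below them in the bell stage.

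The sequence before the start of Sp5, the gene with the strongest lingual excess, is shown first. Beside it are those of Lef1 and Tcf7l2, the genes called buccal in every side comparison, and of Axin2, which was close to level. Each run is the 250 bases before an annotated start, 5′ to 3′ on the plus strand, from the RefSeq promoter table of GRCm38.p6, at chr2:70474673-70474922 for Sp5, chr3:131110047-131110296 for Lef1, chr19:55741560-55741809 for Tcf7l2 and chr11:108920099-108920348 for Axin2. Capitals mark CTTTG, the core of the LEF/TCF motif, read on either strand, and the full motifs CTTTGAA and CTTTGAT, which contain that core. Lef1 and Tcf7l2 have other annotated starts, of which the first is shown.
Sp5: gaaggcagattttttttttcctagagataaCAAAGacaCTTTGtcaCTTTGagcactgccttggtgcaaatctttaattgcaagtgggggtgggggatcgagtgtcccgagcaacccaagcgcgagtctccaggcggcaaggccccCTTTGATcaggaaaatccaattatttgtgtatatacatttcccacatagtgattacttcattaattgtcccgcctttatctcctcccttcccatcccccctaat
Lef1: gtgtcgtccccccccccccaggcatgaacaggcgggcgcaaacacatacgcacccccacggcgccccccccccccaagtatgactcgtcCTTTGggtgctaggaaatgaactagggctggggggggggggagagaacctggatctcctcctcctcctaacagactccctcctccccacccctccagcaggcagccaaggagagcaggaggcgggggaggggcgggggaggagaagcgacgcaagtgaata
Tcf7l2: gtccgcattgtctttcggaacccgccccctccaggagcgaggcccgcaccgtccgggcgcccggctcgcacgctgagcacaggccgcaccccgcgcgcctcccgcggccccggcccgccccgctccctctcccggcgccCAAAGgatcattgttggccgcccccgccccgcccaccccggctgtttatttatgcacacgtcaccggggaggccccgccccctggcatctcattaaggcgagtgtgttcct
Axin2: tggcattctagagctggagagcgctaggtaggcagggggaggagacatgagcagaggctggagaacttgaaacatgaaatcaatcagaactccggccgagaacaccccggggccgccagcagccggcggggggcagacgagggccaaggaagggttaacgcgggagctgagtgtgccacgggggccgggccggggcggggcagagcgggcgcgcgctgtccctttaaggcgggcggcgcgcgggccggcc
Sp5 held 4 cores, and at least as many were found in 0.773% of the 32851 windows of this length. One of them, 104 bases before the start, was the full motif CTTTGAT. A full motif of either kind was in 7.48% of all windows, and a core in 48.6%. The Lef1 and Tcf7l2 windows shown held 1 core each, and the Axin2 window held none. Each of the other Lef1 and Tcf7l2 windows held at least 1 core too. Of the 10 genes, 8 had windows in the table, 13 windows in all, and the Sp5 window was the only one of these with a full motif. These matches describe the letters of the windows and were not linked to the expression values by a test.

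Among the LEF/TCF genes, Lef1 (ENSMUSG00000027985, chr3:130904120-131018005) encodes an activator that is itself a Wnt target. It measured 68.9, 71.3 and 71.5 CPM in Cap-L and 117, 116 and 111 in Cap-B. The same order held at the bell stage, with 59.8, 60.0 and 62.8 in Bell-L and 90.6, 92.7 and 91.7 in Bell-B, and after culture, with 32.8, 31.3 and 32.8 in Cap-L+2D and 71.4, 68.5 and 72.4 in Cap-B+2D. Without overlap in any condition, the buccal excess was 0.72 ± 0.05, 0.59 ± 0.04 and 1.12 ± 0.05 on the log2 scale. Of its exon bases, 13.7% overlap the gene Lef1os1, and the counts were made without strand, with pairs shared by several genes left out. From high to low, the order of Lef1 was Cap-B, Bell-B, Bell-W, Cap-B+2D, Cap-L, Bell-L, Cap-W and Cap-L+2D, in which Bell-B overlapped Bell-W and Cap-B+2D overlapped Cap-L.

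Tcf7l2 (ENSMUSG00000024985, chr19:55730252-55922086), another DNA-binding partner of beta-catenin, measured 36.04, 37.7 and 38.0 CPM in Cap-L and 82.2, 80.5 and 81.3 in Cap-B. It was 38.4, 35.7 and 32.6 in Bell-L and 52.8, 54.9 and 53.1 in Bell-B. After culture it was 47.3, 42.6 and 45.2 in Cap-L+2D and 68.9, 66.3 and 65.8 in Cap-B+2D. The buccal part was higher without overlap in each condition, by 1.15 ± 0.05 at the cap stage and by 0.59 ± 0.05 and 0.57 ± 0.05 at the bell stage and after culture. Muscle markers were also higher in the buccal part, and their part in the differences of Lef1, Tcf7l2 and Apcdd1 was not tested.

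Tcf7 (ENSMUSG00000000782, chr11:52143198-52174158), which encodes TCF1 and is likewise a target of the pathway, was lingual at the cap stage. It measured 55.9, 54.0 and 54.6 CPM in Cap-L and 27.3, 25.3 and 25.2 in Cap-B, and after culture 64.2, 62.7 and 65.8 in Cap-L+2D and 24.2, 24.1 and 23.4 in Cap-B+2D. In the bell stage parts it was 73.8, 72.6 and 73.8 in Bell-L and 84.6, 85.7 and 86.6 in Bell-B. The sides did not overlap in any condition, with the lingual one on top at the cap stage and after culture (-1.06 ± 0.05 and -1.44 ± 0.05) and the buccal one on top at the bell stage, by 0.22 ± 0.03, which was too small for a call (adjusted p = 1.22e-06). The epithelial sum was higher in the lingual part in each condition, and its part in the Tcf7 differences was not tested. Tcf7 ran from Bell-W through Bell-B, Bell-L, Cap-L+2D, Cap-L, Cap-B and Cap-B+2D down to Cap-W, and only the first pair and the last pair in this order overlapped.

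Tcf7l1 (ENSMUSG00000055799, chr6:72603361-72766237), which acts mainly as a repressor of Wnt targets, overlapped between the sides at the cap stage, with 148, 155 and 152 CPM in Cap-L and 146, 139 and 149 in Cap-B (interval of the log2 difference -0.13 to 0.05). It was 123, 119 and 120 in Bell-L and 115, 117 and 117 in Bell-B, without overlap but without a call (-0.05 ± 0.03, adjusted p = 0.219). After culture it was lower in the buccal part without overlap, at 124, 131 and 137 CPM against 161, 151 and 156, by a log2 fold change of -0.26 ± 0.04 that was below the limit.

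Per kilobase of exon, the 4 LEF/TCF genes added up to like levels on both sides of the cap stage, 69.0 ± 0.8 CPM per kilobase in Cap-L and 67.6 ± 1.5 in Cap-B (SD, n = 3), but in different proportions. Tcf7l1 was the most abundant of them on both sides, with 56.0% ± 0.6 and 54.5% ± 1.1 of the sum. Tcf7 made up 26.3% ± 0.8 in Cap-L and 12.7% ± 0.5 in Cap-B, Lef1 11.6% ± 0.1 and 19.3% ± 0.7, and Tcf7l2 6.06% ± 0.11 and 13.5% ± 0.2. The ranges over libraries of these last 3 shares did not overlap between the sides. Later, in the bell stage, the share of Tcf7 was 36.9% ± 0.3 in Bell-L and 38.1% ± 0.2 in Bell-B, so both sides were close, and Tcf7l1 had 46.6% ± 0.2 and 39.8% ± 0.02. Per kilobase, the sum was lower in Cap-B+2D than in Cap-L+2D, at 56.8 ± 1.5 against 69.8 ± 2.1. These sums and shares depend on the scaling by the length of all annotated exons. That length is 8788 bases for Lef1, 8894 for Tcf7l2, 3924 for Tcf7l1 and 3019 for Tcf7. Lef1 and Tcf7l2 therefore weigh less in them than in plain CPM, for which the sides were not compared as a sum. The plot of the family by group shows these sums and their parts.

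**Figure D4:**
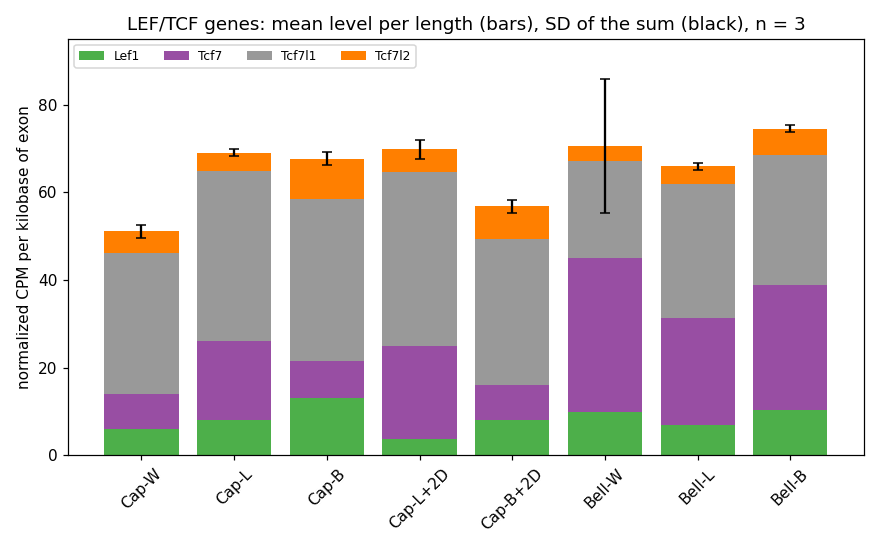
Mean normalized CPM per kilobase of exon (vertical axis, from 0) of Lef1, Tcf7, Tcf7l1 and Tcf7l2, stacked for each of the 8 groups, with the SD of the sum in black (n = 3). The sum is 69.0 in Cap-L and 67.6 in Cap-B, and the Tcf7 segment is the larger in Cap-L.

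Whether the side difference itself changed with stage was tested as an interaction over the 12 libraries of Cap-L, Cap-B, Bell-L and Bell-B. It passed an adjusted p of 0.05 in 7 genes, against 32.5% of all genes tested, 14.5% toward buccal and 18.0% toward lingual, with no limit on the fold. For Tcf7 the log2 difference between the sides moved by 1.27 ± 0.06 toward buccal from cap to bell, and for Sp5 by 0.83 ± 0.24. The 5 others moved toward lingual, from -0.35 ± 0.06 for Axin2 to -0.69 ± 0.06 for Nkd2, with -0.57 ± 0.07 for Tcf7l2, -0.51 ± 0.05 for Apcdd1 and -0.46 ± 0.06 for Nkd1 between them, and for these 7 genes the sides lay closer together at the bell stage. The interaction did not pass for Lef1 (-0.14 ± 0.06, adjusted p = 0.0561), Tcf7l1 (-0.02 ± 0.05) and Kremen1 (0.01 ± 0.06). That of Lef1 did pass when at least 10 counts were required in every library (-0.14, edgeR adjusted p = 0.0472). With all 24 libraries in 1 fit, 5 genes passed, and Sp5 (adjusted p = 0.112) and Tcf7l2 (adjusted p = 0.0985) did not. The buccal level of Tcf7 rose more than the lingual one, from 25.9 ± 1.2 CPM in Cap-B to 85.7 ± 1.0 in Bell-B (SD, n = 3), against a change from 54.8 ± 1.0 in Cap-L to 73.4 ± 0.7 in Bell-L.

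The interaction of side with culture, over Cap-L, Cap-B and their cultured counterparts, passed in 8 genes, 2 toward buccal and 6 toward lingual, against 35.5% of all genes, 16.0% and 19.5%. The largest was that of Tcf7l2, at -0.59 ± 0.07, and it was the only one over 0.5 in size. For Lef1 and Apcdd1 the buccal excess was wider after culture, by 0.40 ± 0.06 and 0.29 ± 0.06. The others that passed moved toward lingual, namely Tcf7 (-0.38 ± 0.07), Axin2 (-0.27 ± 0.06), Nkd2 (-0.23 ± 0.06), Tcf7l1 (-0.22 ± 0.06) and Nkd1 (-0.17 ± 0.06), of which Nkd1 no longer passed without Cap-L+2D replicate 1 or Cap-B+2D replicate 1 (adjusted p = 0.0501 and 0.0558). The changes for Sp5 of -0.56 ± 0.32 (adjusted p = 0.181) and for Kremen1 of -0.0041 ± 0.0586 did not pass. With all 24 libraries in 1 fit, whose spread includes that of the undivided groups, 2 of the genes passed, Lef1 and Apcdd1. The 6 that moved toward lingual did not. Their edgeR adjusted p was 0.0647 for Tcf7l2, 0.0750 for Nkd2, 0.0820 for Axin2, 0.130 for Tcf7, 0.469 for Nkd1 and 0.509 for Tcf7l1.

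The same libraries were then compared within each side, and the bell and cultured groups share the Cap-L or Cap-B libraries as their reference. In the lingual part from cap to bell, 1 gene was called, where the background was 20.0% of genes, 14.2% higher and 5.78% lower at the bell stage. It was Nkd2, at 46.7 ± 1.4 CPM in Cap-L and 77.0 ± 0.7 in Bell-L (SD), a log2 fold change of 0.74 ± 0.04 (SE). The uncalled values were 0.44 for Tcf7, 0.28 for Kremen1, 0.14 for Nkd1, 0.02 for Apcdd1, -0.05 for Tcf7l2, -0.10 for Sp5, -0.12 for Axin2, -0.20 for Lef1 and -0.32 for Tcf7l1. In the buccal part 3 were called, against 18.7% of all genes, 12.0% higher and 6.73% lower, with Tcf7 and Sp5 higher at the bell stage (1.72 ± 0.04 and 0.74 ± 0.22) and Tcf7l2 lower (-0.61 ± 0.04). Sp5 remained low in Bell-B, and without Cap-B replicate 2 its difference was 0.59 with an edgeR adjusted p of 0.0535. Axin2 and Apcdd1 were also lower in Bell-B than in Cap-B, by -0.47 ± 0.03 and -0.48 ± 0.03, under the limit of a call. The other uncalled values in the buccal part were 0.30 for Kremen1, 0.06 for Nkd2, -0.30 for Nkd1, -0.32 for Tcf7l1 and -0.33 for Lef1.

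Culture for 2 days went with the same calls on both sides. Nkd2, Kremen1 and Nkd1 were higher and Lef1 lower in the cultured parts, so 4 genes were called in the lingual part, against a background of 35.4% (19.6% higher, 15.9% lower), and 4 in the buccal part, against 34.5% (17.9% higher, 16.6% lower). Nkd2 was 199, 195 and 204 CPM in Cap-L+2D and 240, 237 and 254 in Cap-B+2D, far above the fresh parts given earlier. Its log2 fold changes, cultured over fresh, were 2.08 ± 0.04 and 1.86 ± 0.04. Kremen1 rose by 0.92 ± 0.04 and 0.93 ± 0.03, and Nkd1 by 0.81 ± 0.04 and 0.65 ± 0.04, to 169, 163 and 166 CPM in Cap-L+2D and 202, 208 and 211 in Cap-B+2D. Lef1 fell by 1.14 on the log2 scale in the lingual and by 0.73 in the buccal part. Axin2 differed from the fresh parts by 0.13 ± 0.05 and -0.13 ± 0.03, in opposite directions on the 2 sides and without a call. The other uncalled values, lingual then buccal, were 0.07 and 0.38 for Apcdd1, 0.16 and -0.39 for Sp5, 0.22 and -0.15 for Tcf7, 0.03 and -0.18 for Tcf7l1, and 0.26 and -0.31 for Tcf7l2. Other cell types differed as well between fresh and cultured tissue, and their part in these changes was not tested. The erythroid marker sum was 3189 on average in Cap-L and 37.1 in Cap-L+2D, the macrophage sum 63.9 and 255, and the muscle sum 26.2 and 395.

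**Figure D5:**
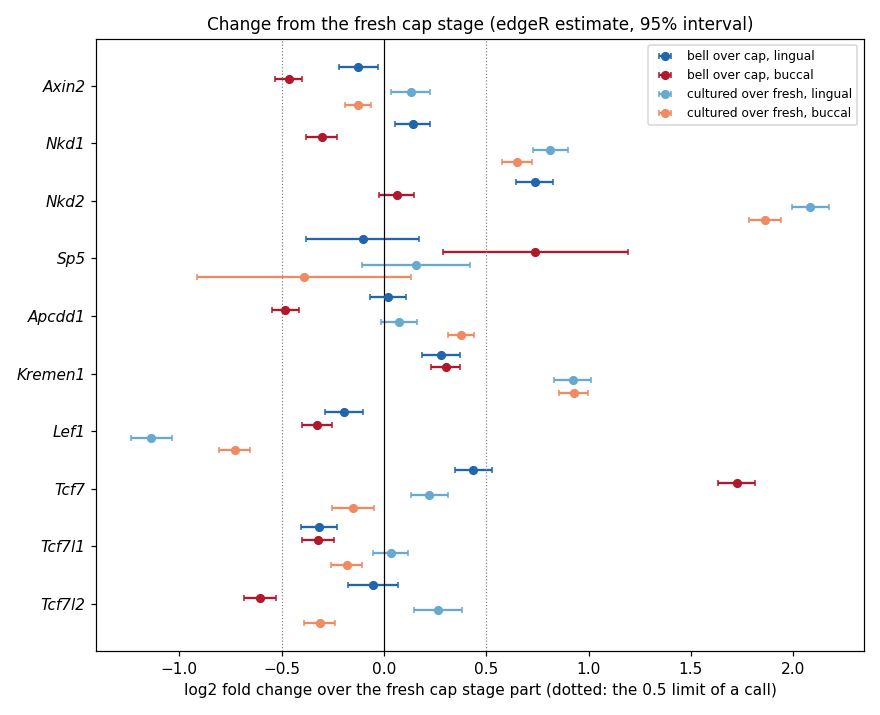
Log2 fold change of each gene over the fresh cap stage part of the same side (horizontal axis) at the bell stage and after 2 days of culture, with 95% intervals of edgeR's estimate. Nkd2 stands at 2.08 and 1.86 after culture, and Tcf7 at 1.72 in the buccal part of the bell stage.

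In the undivided mesenchyme 6 genes were called, all higher at the bell stage, where the background was 14.5% of all genes tested, 10.3% higher and 4.21% lower at that stage. Tcf7 rose most, from 20.1, 26.6 and 24.3 CPM in Cap-W to 76.9, 118 and 122 in Bell-W, with a log2 fold change of 2.15 ± 0.19. Apcdd1, Kremen1, Nkd2, Lef1 and Nkd1 followed, with 1.07 ± 0.14, 0.86 ± 0.22, 0.75 ± 0.10, 0.70 ± 0.11 and 0.68 ± 0.15. The divided parts did not all move this way. Lef1 was lower at the bell stage in both (-0.20 lingual, -0.33 buccal, uncalled). Apcdd1 and Nkd1 were lower in the buccal part (-0.48 and -0.30, uncalled), with 0.02 and 0.14 in the lingual part. Tcf7, Kremen1 and Nkd2 had positive values in both parts. In the undivided tissue, the values that did not pass were -0.81 ± 0.32 for Sp5, -0.58 ± 0.25 for Tcf7l2, -0.54 ± 0.20 for Tcf7l1 and -0.39 ± 0.12 for Axin2. Without Bell-W replicate 3, the library with the high epithelial sum, Kremen1 and Nkd1 no longer passed, while Sp5, Tcf7l1 and Tcf7l2 passed as lower at the bell stage (-1.15, -0.81 and -0.95). Kremen1 and Nkd1 also lost the call without Bell-W replicate 2 or Cap-W replicate 3. Without Cap-W replicate 1, the library with the high share of ribosomal RNA, 6 genes passed and Kremen1, at 42.5 CPM in that library against 76.7 and 71.9 in the others, had a log2 fold change of 0.64 in place of 0.86.

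For several genes the undivided libraries did not lie between those of their parts. At the cap stage all 3 Cap-W libraries were below every Cap-L and Cap-B library in 6 genes, Lef1, Tcf7l1, Nkd1, Nkd2, Apcdd1 and Kremen1, against 22.4% of 14046 genes. Apcdd1, for instance, was 66.2, 71.7 and 73.5 CPM in Cap-W, where its lowest part library was at 130. For the bell stage this held for Axin2 and Nkd1, against 13.4% of genes. The sum of 7 endothelial markers was lower in Cap-W as well, at 196 to 209 CPM. It was 485 to 498 in Cap-L and 429 to 445 in Cap-B. The macrophage sum was 31.9 to 35.1 in Cap-W, 62.4 to 66.6 in Cap-L and 65.8 to 73.9 in Cap-B. Likewise, the osteoblast sum of 80.5 to 158 and the muscle sum of 18.7 to 24.6 were below both parts. The other sums were not below both parts in every Cap-W library. In Bell-W the muscle, endothelial and Schwann sums were below both parts, muscle at 11.7 to 21.9 against 140 to 150 in Bell-L. The part of these cell types in the gaps was not tested.

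Across the 24 libraries, the 10 genes fell into no single pattern. Pearson's r of log2 CPM, given as a description since libraries of 1 group share their condition, was 0.90 for Nkd2 and Kremen1, 0.88 for Nkd1 and Kremen1 and 0.88 for Nkd1 and Nkd2, the genes that were higher in culture. It was -0.75 for Sp5 and Apcdd1 and -0.67 for Sp5 and Lef1. Axin2 and Lef1 were close to unrelated (-0.10). Over 14045 genes, those most like Axin2 were Brpf3, Zfp335, Pacs1, Fhip2a and Edc4 (r from 0.93 to 0.95), and those most like Lef1 were Adgrg6, Syt16, Mnd1-ps, Stag3 and Efr3b (0.88 to 0.92).

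The other genes of the pathway also went both ways between the sides of the cap stage, where 10.4% of all genes were called buccal and 7.10% lingual. Of 15 Wnt ligands tested, 6 were called buccal and 5 lingual, with Wnt16 at 2.17 ± 0.10 and Wnt10b at -1.68 ± 0.10 on the log2 scale. Of 12 receptors 4 were called, all lingual, among them Fzd9 (-1.55 ± 0.13) and Fzd5 (-1.39 ± 0.10). Of 13 inhibitors, secreted except for the receptor Kremen2, 4 were buccal, led by Sfrp5 (3.42 ± 0.17), and 2 lingual, of which Frzb reached -0.95 ± 0.04. In the R-spondin axis, whose ligands amplify Wnt signals by sparing Frizzled from degradation, 2 of 9 genes were buccal and 2 lingual. They included Rspo2 (1.19 ± 0.06) and Rspo3 (-1.43 ± 0.06). The other lingual one was Rnf43 (-1.06 ± 0.10), which encodes a ligase for that degradation, so these counts mix ligands with their opponents. Of 14 cytoplasmic transduction genes 1 was called, Apc2 (0.83 ± 0.06), and of 11 nuclear cofactors 2 were, Tle1 (0.78 ± 0.04) and Tle4 (-0.56 ± 0.05), where 17.5% of all genes were called in either direction. Of 15 other Wnt targets 2 were buccal, Ephb3 (1.31 ± 0.04) and Ccnd1 (0.87 ± 0.04), and 5 lingual, led by Myc (-1.84 ± 0.05). The lists share genes, so their counts are not independent. Notum, Dkk1, Dkk4 and Wif1 are among both the other targets and the inhibitors. Lgr5, Znrf3 and Rnf43 are among both the other targets and the R-spondin axis.

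The bell stage, with a background of 6.00% buccal and 6.88% lingual among all genes, had 2 ligands buccal and 3 lingual of 15, 4 inhibitors buccal and 2 lingual of 14, and 3 other targets buccal and 2 lingual of 16. Of the receptors 1 of 12 was lingual, of the R-spondin axis 2 of 9 and of the nuclear cofactors 1 of 11, and the 14 cytoplasmic genes had a median log2 fold change of 0.02. Sfrp5 (1.38 ± 0.14) and Dkk2 (-1.62 ± 0.03) were among the inhibitors, and Lgr5 (-0.70 ± 0.03), which belongs to both the R-spondin axis and the targets, was lingual. After culture, where 12.5% of all genes were called in each direction, 7 of 12 ligands were lingual and 3 buccal, 7 of 13 inhibitors lingual and 3 buccal, and 8 of 15 other targets lingual and 2 buccal, and 6 of 9 genes of the R-spondin axis were lingual. Of the 12 receptors 2 were lingual and 2 buccal, and 1 of 14 cytoplasmic genes was buccal and 1 of 11 cofactors lingual. Dkk1 and Rnf43, both lingual here, were each counted in more than 1 of these lists. So were Wif1, Notum and Lgr5, whose CPM was also higher in every lingual library. In Cap-L+2D against Cap-B+2D, Wif1 was 231 to 242 against 89.2 to 94.6. Notum was 10.9 to 12.7 against 5.32 to 6.67, and Lgr5 218 to 225 against 123 to 128. Wnt2 (-3.20 ± 0.10), Sostdc1 (-2.36 ± 0.04), Rspo4 (-1.96 ± 0.11) and Bambi (-2.18 ± 0.05) were the leading lingual ones. Kremen2, the paralog of Kremen1, was buccal (2.58 ± 0.10) in the same comparison, in which Kremen1 itself did not pass. Epithelial markers were 10 of 12 lingual in the same comparison, with a median log2 fold change of -3.03, and their part in these counts was not tested.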

How the data were processed

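Raw counts of read pairs per gene in 24 libraries are what the authors deposited, made after trimming and alignment with featureCounts of Subread 2.0.0 over exons of GRCm39 per the file header, without strand. The study's methods name Cutadapt 2.8 and STAR 2.7.1a, whereas the submitters' processing notes list Trimmomatic 0.39, Bowtie 1.2.3 and Subread 2.0.3, and the library kit also differs between these sources. Symbols were matched by Ensembl identifier for 56017 of 56748 genes, and 1 listed gene, Tbxt, had no match.

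Counts were normalized by TMM and tested with edgeR 4.0.16 in R 4.3.3, by the quasi-likelihood test after filterByExpr, with p-values adjusted by Benjamini-Hochberg over all genes of a comparison. Sides were compared within 6 libraries, interactions over 12, and stage and culture over the 9 libraries of a side in a single fit. Printed CPM are scaled over all 24 libraries, so ratios of means can differ slightly from fitted folds. With 3 libraries against 3, an exact two-sided permutation test cannot go below p = 0.1, and none was used. No 2 replicates were identical in count. The chi-square per gene between replicates was 1.34 to 11.1 in the divided groups, and 8.99 to 189 in the undivided ones. The lowest values, 1.34 to 1.54 in Cap-B, lay close to what counting error alone gives. The small SEs and the lack of overlap between the sides may thus reflect little spread between animals. Libraries with the same number correlated in their deviations by -0.24 to 0.24 and were not treated as paired. The procedure was tested on simulated counts.

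Alternatives were RLE normalization, DESeq2 1.42.0, other filters, fold limits and sample sets, a replicate block and each library left out. The genes and lists were chosen with earlier results of these data known. All 10 genes are given in each comparison, and of each pathway list only genes among the 2 per direction with the largest fold. Floors cover counting error only.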

Additional observations from a re-analysis of the deposited data

Results flagged for a closer look

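The side difference of several genes changed between conditions, each tested as an interaction in edgeR and adjusted over all genes. From the cap to the bell stage, the log2 difference, buccal over lingual, moved by 1.27 for Tcf7 (adjusted p = 2.19e-16) and by 0.83 for Sp5 (adjusted p = 0.00837), toward the buccal side. It moved toward the lingual side by -0.69 for Nkd2, -0.57 for Tcf7l2, -0.51 for Apcdd1, -0.46 for Nkd1 and -0.35 for Axin2. With all 24 libraries in 1 fit, Sp5 and Tcf7l2 did not pass (adjusted p = 0.112 and 0.0985). For Tcf7 and Nkd2, the libraries of the sides lay apart in opposite directions at the cap and bell stages, with no call at the bell stage.

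From fresh to cultured tissue, the difference moved by 0.40 for Lef1 and 0.29 for Apcdd1 toward the buccal side. It moved toward the lingual side by -0.59 for Tcf7l2, -0.38 for Tcf7, -0.27 for Axin2, -0.23 for Nkd2, -0.22 for Tcf7l1 and -0.17 for Nkd1. The change for Nkd1 did not pass without Cap-L+2D replicate 1 (edgeR adjusted p = 0.0501), without Cap-B+2D replicate 1 (0.0558) or without a filter on low counts (0.0638). With all 24 libraries in 1 fit, the changes for Lef1 and Apcdd1 passed, and those of the genes that moved toward lingual did not. Both interactions use the Cap-L and Cap-B libraries.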

How the results depend on the processing

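In 1440 fits of the 10 genes under the alternatives, 1382 kept their direction and their side of the threshold, 23 no longer passed, 9 newly passed and 26 changed sign, with 0 sign changes among the called results. Without the limit on the fold, the genes passing numbered 6 in place of 3 for the sides at the bell stage, 8 in place of 5 for the sides after culture, 7 in place of 1 and 9 in place of 3 for bell over cap in the lingual and buccal parts, and 7 and 9 in place of 4 for culture in these parts. For the interaction of side with culture, 8 became 1 with a limit of 0.5 on the fold and 2 with all 24 libraries in 1 fit. Nkd2 at the cap stage was under the limit without a filter on low counts (0.49) and with all 24 libraries (0.49). For the undivided tissue, leaving out a library gave 4 to 7 genes in place of 6.

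The replicate number as a block changed no call, for example 6 genes at the cap stage with the block and 6 without. Every same-numbered pair correlated by over 0.1 in its deviations in 0 of 8 comparisons, and each library correlated best with its own number in 2 of 8, so the numbers were not taken as pairs.

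The sign changes were in uncalled values near 0. Kremen1 changed sign for the sides at the bell stage under RLE normalization (0.0001028) and without a filter (2.245e-06), and for side with culture in the fit of all 24 libraries (0.032) and without a filter (0.0043). Tcf7l1 did so for side with stage in these settings (0.013 and 0.021). With each library left out in turn, Kremen1 ranged from -0.051 to 0.014 for the sides at the cap stage, from -0.027 to 0.027 at the bell stage, from -0.016 to 0.053 for side with stage and from -0.036 to 0.025 for side with culture. Tcf7l1 ranged from -0.029 to 0.014 for side with stage, and Nkd1 from -0.0013 to 0.065 for the sides at the bell stage. In the lingual part, Apcdd1 ranged from -0.0067 to 0.033 and Tcf7l2 from -0.11 to 0.0069 from cap to bell, and Sp5 from -0.028 to 0.28 in culture. Sp5, with 14 to 55 counts in the divided buccal libraries, is the gene whose values depth limits most.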
